A study of Rattus norvegicus with 6 samples.

Results

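Fatty acids stored as triglyceride in lipid droplets are fuel for the heart. The transcripts of 10 genes of lipolysis and lipid droplets were looked up in the left ventricle of diabetic and normal rats. The members were Pnpla2, G0s2, Abhd5, Lipe, Mgll, Pnpla7, Plin2, Plin3, Plin5 and Cidea, and every probe set that the array annotation assigns to one of these symbols was taken. This gave 12 of 15866 probe sets (control probe sets left out), for 8 of the 10 genes and of the 10411 genes that the array names, while Abhd5 and Plin5 had no probe set under their symbols and were not analysed here. The diabetic group held 3 diabetic rats and the normal group 3 control rats, with 1 Affymetrix array of ventricular total RNA per animal. The labels name neither how diabetes was produced or how long it lasted, nor strain, sex, age, feeding state or time of sampling, and these limit what the groups stand for. Whole ventricle was measured, so fewer cells of a type and less RNA per cell cannot be told apart.

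Lipid droplets are the cell's fat stores, wrapped in coat proteins of the perilipin family. Adipose triglyceride lipase, the product of Pnpla2, takes the first fatty acid off a triglyceride. It is switched on by the coactivator made from Abhd5 and held back by the small inhibitor made from G0s2. Hormone-sensitive lipase (Lipe) and monoacylglycerol lipase (Mgll) complete the breakdown. In a heart that burns mostly fatty acids, this pool supplies fuel as well as ligands for PPAR-alpha, the nuclear receptor that controls fat oxidation genes.

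Pnpla2, Pnpla7 and Cidea rose and G0s2 fell in diabetic ventricles, while Lipe, Mgll, Plin2 and Plin3 did not pass the test. A fold change here is a difference of log2(signal + 16), diabetic minus normal, which understates the change of dim genes. Passing means a limma p under 0.05 after Benjamini-Hochberg adjustment over the 9519 probe sets above a filter on dim signals. Of the 12 probe sets, 11 were tested and the dimmest of Mgll fell below the filter. Among the 11, 3 rose and 1 fell, which is 36.4%, against 2.88% of all tested probe sets (1.5% risen and 1.38% fallen). The groups did not overlap at 5 of the 11, or 45.5%, against 25.7% of all tested probe sets. The median log2 fold change was 0.29 over the 11 and -0.01 over all tested probe sets. These genes were chosen with earlier results of these data known, including those for Pnpla2 and G0s2, so their count is a description.

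The transcripts that changed are introduced with the 250 bases before the annotated start of each gene, as RefSeq gives them on GRCr8, shown because they are the promoter stretches of the 4 genes that moved. They lie at chr1:205982029-205982278 on the plus strand for Pnpla2, at chr3:28180501-28180750 on the plus strand for Pnpla7, at chr18:63164567-63164816 on the plus strand for Cidea and at chr13:107335949-107336198 on the minus strand for G0s2. Each is written 5′ to 3′ on the gene's strand, and capitals mark GGGCGG or its reverse complement, the GC box bound by Sp1-type factors.
Pnpla2: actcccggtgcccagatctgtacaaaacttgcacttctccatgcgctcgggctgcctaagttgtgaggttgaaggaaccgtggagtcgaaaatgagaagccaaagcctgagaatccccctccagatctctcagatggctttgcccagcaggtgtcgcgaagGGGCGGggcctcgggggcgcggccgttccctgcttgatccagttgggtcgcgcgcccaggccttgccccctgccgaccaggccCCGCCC
Pnpla7: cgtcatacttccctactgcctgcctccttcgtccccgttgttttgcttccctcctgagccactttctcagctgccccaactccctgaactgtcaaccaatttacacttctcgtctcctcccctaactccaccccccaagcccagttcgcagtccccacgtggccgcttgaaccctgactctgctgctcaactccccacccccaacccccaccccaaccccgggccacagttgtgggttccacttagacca
Cidea: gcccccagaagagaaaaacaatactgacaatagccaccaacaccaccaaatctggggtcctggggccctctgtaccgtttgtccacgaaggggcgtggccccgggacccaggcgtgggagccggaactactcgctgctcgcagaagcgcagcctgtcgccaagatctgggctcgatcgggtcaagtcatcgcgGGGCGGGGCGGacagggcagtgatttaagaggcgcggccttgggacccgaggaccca
G0s2: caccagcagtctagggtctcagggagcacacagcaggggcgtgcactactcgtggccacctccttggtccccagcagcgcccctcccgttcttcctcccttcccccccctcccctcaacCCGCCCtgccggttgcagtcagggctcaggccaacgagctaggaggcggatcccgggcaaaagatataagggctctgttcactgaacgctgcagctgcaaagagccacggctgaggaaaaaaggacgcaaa

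On both strands 4 motifs were searched. GGGCGG stood in the Pnpla2 window at bases 89 to 84 before the start and, reversed, at bases 6 to 1. Cidea had overlapping copies at bases 57 to 52 and 52 to 47, and G0s2 had a reversed copy at bases 131 to 126. The Pnpla7 window held none. The nuclear receptor motif AGGTCA, the forkhead core GTAAACA and the TATA box TATAAA were absent from all 4 windows. Over all 33469 promoters of the table, the same stretch held GGGCGG in 30.5%, AGGTCA in 14.1%, TATAAA in 12.9% and GTAAACA in 3.2%. The table had a promoter for 9 of the 10 genes, all but Lipe. GGGCGG also stood, on either strand, before Mgll, Plin2 and Plin3, which did not pass, and before Abhd5 and Plin5, which were not analysed. It was therefore not particular to the genes that moved. AGGTCA stood before Abhd5 and Plin5. These matches describe the letters of the windows only.

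The deposited values had the same trimmed mean signal on each array (499.3 to 499.7), as values scaled to a common level would. It therefore does not show how alike the arrays were before any scaling. The heart labelled normal 3 stood apart for these genes. It was the lowest of the normal arrays at 11 of the 12 probe sets, Cidea being the exception. Over all tested probe sets it was the lowest in 34.5%. Log2 fold changes without it are therefore given for each of these genes. Signals of different probe sets are not levels of their genes relative to each other, so comparisons run between arrays within a probe set.

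Pnpla2, the lipase that starts triglyceride breakdown, had signals of 6266, 7311 and 7229 in diabetic ventricles, against 3145, 2918 and 1598 in normal ventricles. Every diabetic array lay above every normal one, and normal 3 was far below the other normal hearts. The means were 6935 ± 581 in diabetic and 2554 ± 835 in normal ventricles (SD, n = 3 each), a ratio of 2.72. The log2 fold change was 1.49 ± 0.25 (SE, limma adjusted p = 0.0176), with a 95% interval of 0.93 to 2.05. Among all tested probe sets this was the 30th largest rise. Without normal 3 it was 1.19 and still passed (limma adjusted p = 0.026, in a range of 0.0237 to 0.069 over the 6 fits that leave out an array). The call was lost without diabetic 2 (adjusted p = 0.069) or diabetic 3 (0.0629), and without the filter on dim probe sets (0.117).

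G0s2, named for a cell cycle switch but known in fat and heart as the inhibitor of that lipase, had signals of 268, 291.5 and 755 in diabetic ventricles, against 1611, 1478 and 1027 in normal ventricles. The groups did not overlap, yet they came closest between diabetic 3, by far the highest of its group, and normal 3, the lowest of its own. G0s2 fell to 438 ± 275 in diabetic ventricles, against 1372 ± 306 in normal ventricles (SD, n = 3 each), a ratio of 0.319. Its log2 fold change was -1.74 ± 0.36 (limma adjusted p = 0.0396), with a 95% interval of -2.56 to -0.93. This was the 14th largest fall. The call held in 1 of the 6 fits that leave out an array, that without diabetic 3, where the log2 fold change was -2.21 (limma adjusted p = 0.00959). Without normal 3 it was -1.94. Leaving out normal 1, 2 or 3 or diabetic 1 or 2 ended it (adjusted p up to 0.119), as did a pseudocount of 1 (0.0532) and no filter (0.189), while the log2 fold change stayed between -2.21 and -1.49 when any array was left out.

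**Figure D1:**
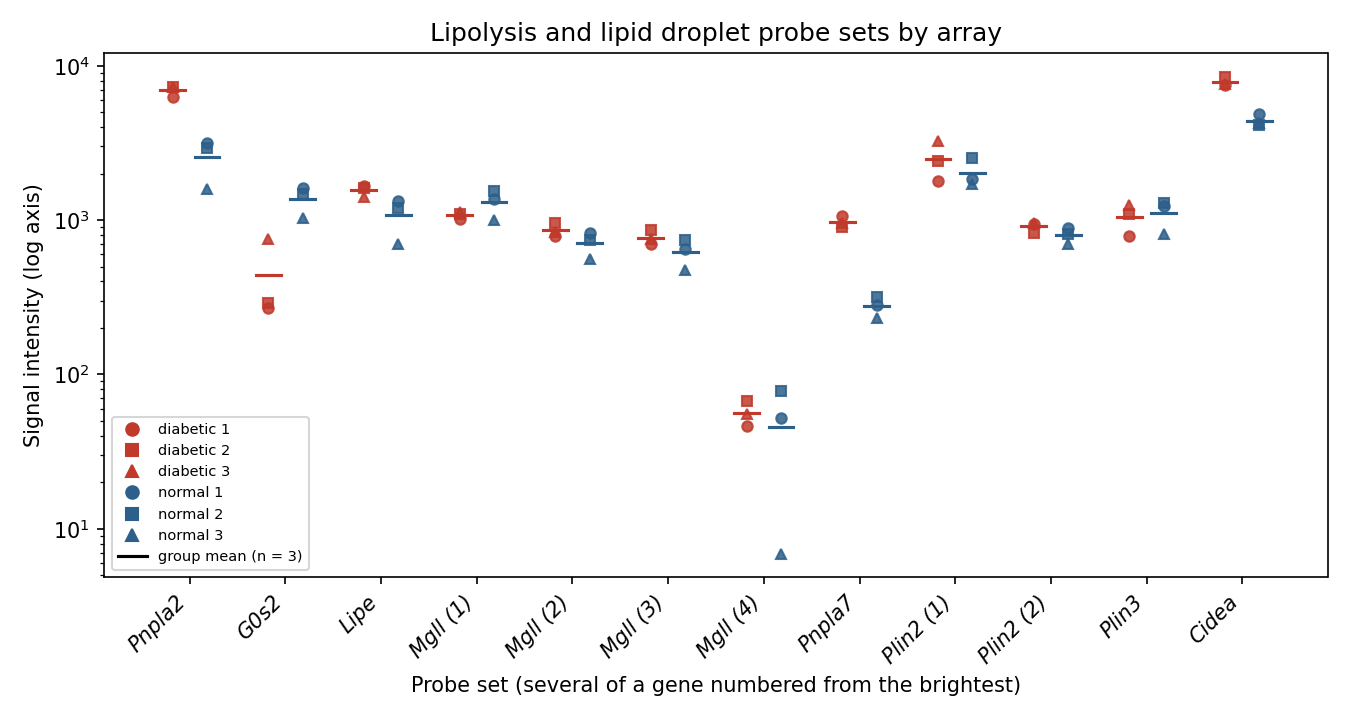
Signal intensity (log axis) of each array at the 12 probe sets, diabetic left of normal within each pair, with a bar at the mean of 3 arrays. Pnpla2, Pnpla7, Cidea and Lipe are higher and G0s2 is lower on all diabetic arrays, without overlap with the normal ones. Normal 3 (triangle) is the lowest normal array at 11 of the 12 probe sets.

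The lipase and its inhibitor were also set against each other on each array. The Pnpla2 signal was 23.4, 25.1 and 9.57 times the G0s2 signal in diabetic ventricles, against 1.95, 1.97 and 1.56 times in normal ventricles. Since each probe set has its own brightness, only the contrast between groups can be read from this ratio. On the log2 scale the ratio averaged 4.09 ± 0.75 in diabetic and 0.85 ± 0.19 in normal ventricles (SD, n = 3 each). The difference of 3.24 ± 0.45 (SE) corresponds to a 9.43-fold higher ratio in diabetic hearts. That difference is the log2 fold change of Pnpla2 less that of G0s2. All diabetic arrays lay above all normal ones, and the two-sided exact permutation test gave p = 0.1, the smallest value that 3 against 3 arrays allow. Pnpla2 and G0s2 each separated the groups, in opposite directions, so the ratio had to separate them too. The test therefore adds nothing to the results of the single genes. With any array left out the difference was 3.00 to 3.67, and without normal 3 it was 3.125. Normal 3 had the lowest ratio of all arrays, and diabetic 3, whose G0s2 signal was high, had the lowest of its group.

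**Figure D2:**
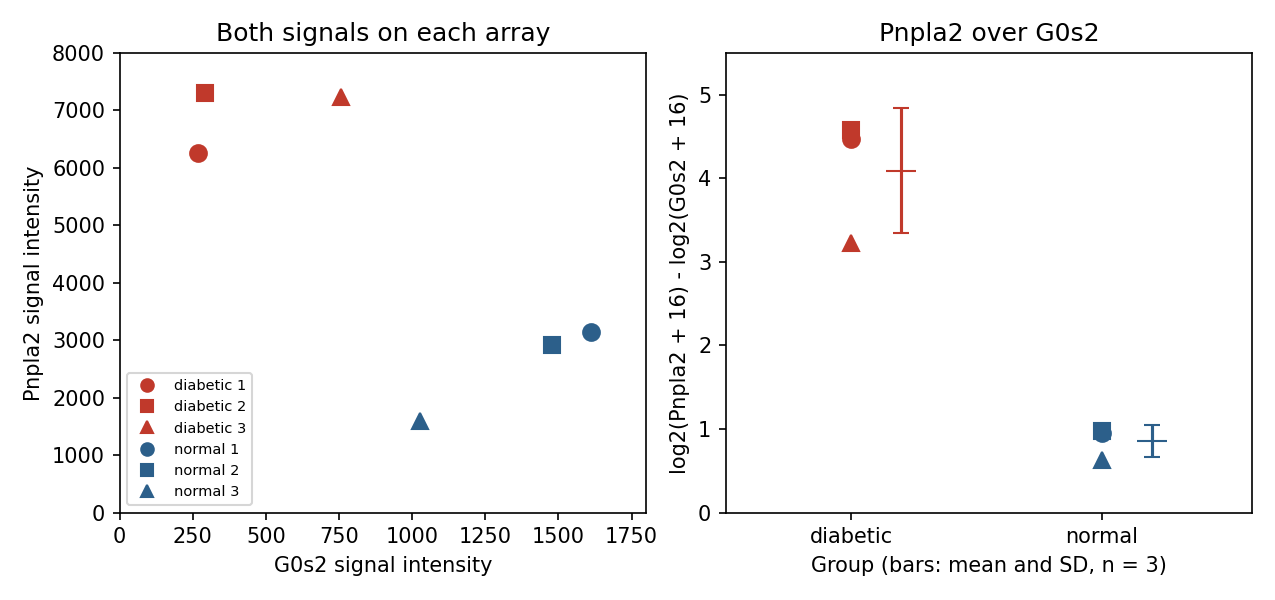
Left, the Pnpla2 signal against the G0s2 signal on each of the 6 arrays. Right, the log2 ratio of these signals (pseudocount 16) for diabetic and normal arrays, with mean and SD (n = 3), where diabetic arrays lie at 3.23 to 4.58 and normal arrays at 0.63 to 0.97.

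Lipe encodes hormone-sensitive lipase, which acts mainly on diacylglycerol and is switched on by adrenergic signals. Its signals were 1671, 1612 and 1409 in diabetic ventricles, against 1333, 1196.5 and 700.3 in normal ventricles. Every diabetic array was above every normal one, normal 1 lay just below the lowest diabetic array, and normal 3 was far below the rest. The log2 fold change of 0.58 ± 0.23 did not pass (limma adjusted p = 0.209, unadjusted 0.0351), and its 95% interval ran from 0.05 to 1.11. Without normal 3 it was 0.30.

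Mgll encodes the lipase for the last step, which frees glycerol, and it also ends endocannabinoid signals. None of its 3 tested probe sets passed, and they did not point the same way. The brightest (1370831_at) had 1011, 1093 and 1120 in diabetic ventricles, against 1372, 1549 and 1004 in normal ventricles, with a log2 fold change of -0.26 ± 0.18 (limma adjusted p = 0.476). The next (1388644_at) had 784, 958 and 837 in diabetic ventricles, against 825.5, 741 and 559 in normal ventricles (log2 0.29 ± 0.18, limma adjusted p = 0.417). In both, the groups overlapped. The other tested one (1375247_at) had 696, 858 and 756 in diabetic ventricles, against 646, 744 and 477 in normal ventricles (log2 0.32 ± 0.19, limma adjusted p = 0.39), again with overlap. Leaving out normal 3 moved all 3 values, to -0.44 for 1370831_at, 0.13 for 1388644_at and 0.14 for 1375247_at. Without normal 2, 1370831_at stood at -0.13. The 95% intervals were -0.67 to 0.15 for 1370831_at, -0.12 to 0.69 for 1388644_at and -0.11 to 0.74 for 1375247_at. Each includes 0, so at each probe set a shift of either sign within its interval is compatible with the arrays. The dim probe set (1375355_at) had signals of 46.2, 67.4 and 55.1 in diabetic and 52.4, 78.5 and 6.9 in normal ventricles, and it was not tested.

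Pnpla7, a relative of Pnpla2 with a patatin-type domain, splits lysophospholipids rather than triglyceride, and in mouse it has been described as a lysophospholipase that responds to insulin. It gave the clearest difference of the genes followed here. Its signals were 1065, 904 and 952 in diabetic ventricles, against 280, 319 and 233 in normal ventricles, so the groups were far apart and each was tight. The means were 973.5 ± 82.8 in diabetic and 277.5 ± 42.9 in normal ventricles (SD, n = 3 each), a ratio of 3.51. Pnpla7 rose by a log2 fold change of 1.76 ± 0.16 (limma adjusted p = 0.00184, 95% interval 1.40 to 2.12). It had the 8th smallest p of all tested probe sets and the 20th largest rise. Its call held in all 6 fits that leave out an array, with log2 fold changes of 1.65 (without normal 3) to 1.86 and adjusted p up to 0.0108. Without the filter on dim probe sets it was the sole member that passed (adjusted p = 0.0451).

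The perilipins coat the droplet and decide how far lipases can reach it. Plin2, the widespread coat protein whose amount follows stored lipid in many cells, has a pair of probe sets here. The brighter one (1382680_at) had 1792, 2403.5 and 3264 in diabetic ventricles, against 1839, 2535 and 1713 in normal ventricles. The groups overlapped widely (log2 0.27 ± 0.24, limma adjusted p = 0.587). At the other (1390383_at) the signals were 949, 826 and 952.5 in diabetic ventricles, against 890, 808 and 698 in normal ventricles (log2 0.19 ± 0.15, limma adjusted p = 0.552). Their 95% intervals were -0.27 to 0.81 and -0.16 to 0.53, so a rise of up to 1.76-fold at the brighter and 1.45-fold at the other lies within error. Single arrays moved these values too. The log2 fold change of 1382680_at was 0.16 without normal 3, 0.05 without diabetic 3, 0.44 without normal 2 and 0.48 without diabetic 1. That of 1390383_at was 0.095 without normal 3.

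Plin3, a coat protein that moves between cytosol and new droplets, had 791, 1097.5 and 1247 in diabetic ventricles, against 1231, 1286 and 810 in normal ventricles. Both groups held low and high arrays, and the log2 fold change of -0.08 ± 0.23 (limma adjusted p = 0.889) has a 95% interval of -0.60 to 0.44. Its sign turned in 3 of the fits that leave out an array, without normal 1, normal 2 or diabetic 1, with values of 0.01, 0.04 and 0.10 on the log2 scale (0.105 at most). Without normal 3 it was -0.29, without diabetic 3 it was -0.22 and without diabetic 2 it was -0.13.

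Cidea promotes the fusion of droplets into larger ones and is best known from brown fat. It was among the brightest signals of these ventricles, above 97.6% of all probe sets by its mean. Its signals were 7480, 8471 and 7598 in diabetic ventricles, against 4867, 4114 and 4252 in normal ventricles. The groups were clearly apart, and normal 3 was not the lowest of its group. Cidea rose to 7849 ± 541 in diabetic ventricles, against 4411 ± 401 in normal ventricles (SD, n = 3 each), a ratio of 1.78. The log2 fold change was 0.83 ± 0.145 (SE, limma adjusted p = 0.0212, 95% interval 0.50 to 1.16). It stayed at 0.78 to 0.90 with any array left out (0.81 without normal 3), but the call was lost without normal 2, normal 3, diabetic 2 or diabetic 3 (adjusted p up to 0.0815) and without the filter (0.115).

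**Figure D3:**
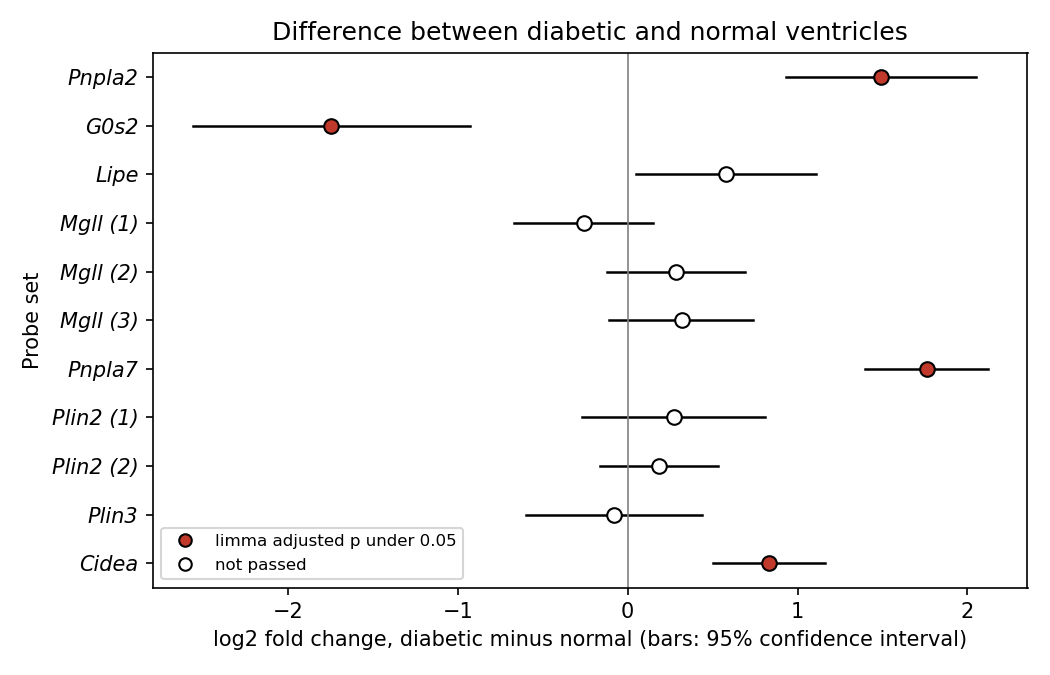
Log2 fold change (diabetic minus normal) of the 11 tested probe sets with 95% confidence intervals from limma, filled where the adjusted p is under 0.05. Pnpla7, Pnpla2 and Cidea lie above 0, G0s2 lies below, and the intervals of Mgll, Plin2 and Plin3 cross 0. The interval of Lipe (0.05 to 1.11) also lies above 0, but Lipe is not filled.

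**Figure D4:**
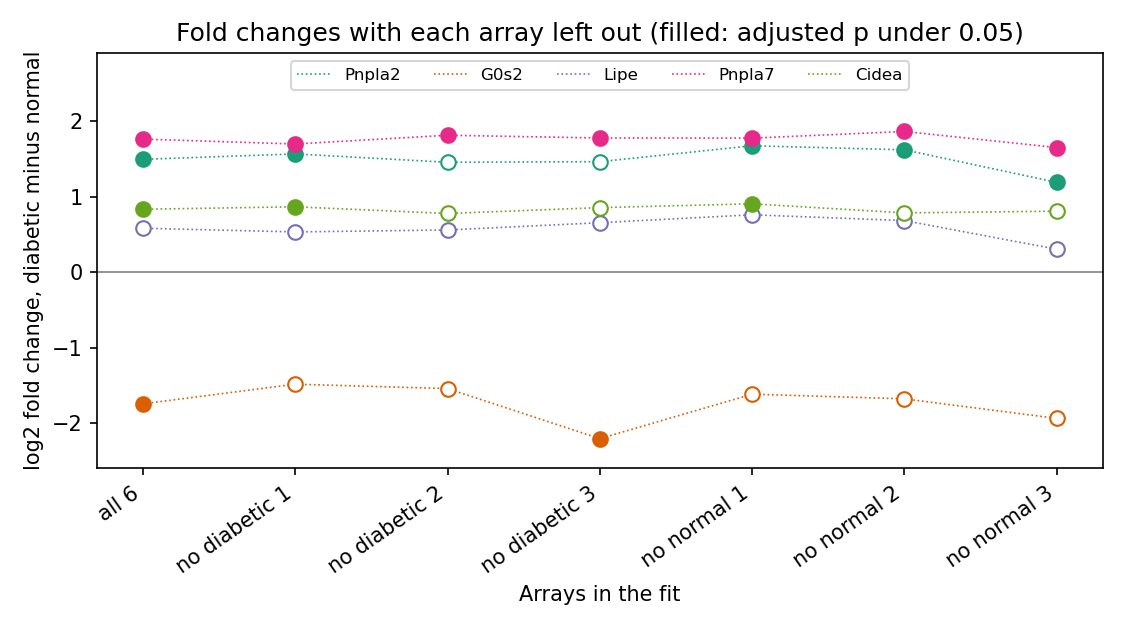
Log2 fold change of Pnpla2, G0s2, Lipe, Pnpla7 and Cidea in the fit of all 6 arrays and with each array left out, filled where the adjusted p is under 0.05. Pnpla7 is filled throughout, and G0s2 is filled with all arrays and without diabetic 3.

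Several of these genes are fat cell genes, so fat cell markers were read beside them. Leptin (Lep) had signals of 6.7, 16.4 and 55.5 in diabetic and 7.1, 13.3 and 11.4 in normal ventricles. Plin1, the perilipin of white fat cells, had 26.2, 66 and 32.6 in diabetic and 46.2, 40 and 76.2 in normal ventricles. Ucp1, the defining gene of brown fat, had 17.5, 6.0 and 6.4 in diabetic and 13.2, 44.5 and 12.1 in normal ventricles. All of these, and Pck1, lay below the dim filter, whose level corresponds to a signal of 113, while Cidea, itself a brown fat marker, was at 4114 or above on each array. Of 5 brown fat markers 4 were on the array and 3 were tested, and Cidea was the one that rose. Cox8b, a cytochrome oxidase subunit that rodent heart also expresses, was very bright, at 21664, 22491 and 20875 in diabetic ventricles, against 29527, 25059 and 23042 in normal ventricles (log2 -0.25, limma adjusted p = 0.401). Ppargc1a, a coactivator of mitochondrial genes, had 221, 271.5 and 251 in diabetic ventricles, against 200.1, 218 and 260 in normal ventricles (log2 0.13, limma adjusted p = 0.715). Summed over the 4 brown fat markers, the signal was 28730 to 31240 in diabetic and 27570 to 34610 in normal ventricles. That sum was nearly all Cox8b and Cidea, whose log2 fold changes had opposite signs, so it cannot show how much brown fat was present. Of 10 white fat cell markers 7 were on the array and 4 were tested (Cfd, Plin4, Fabp4 and Lpl, the last 3 of which heart muscle or its vessels also express), and none passed. Cfd had 220, 199.5 and 210 in diabetic ventricles, against 186, 159 and 178 in normal ventricles (log2 0.25, limma adjusted p = 0.365). The summed signal of the white fat cell markers was 22910 to 29720 in diabetic and 24100 to 29460 in normal ventricles. Nearly all of it came from Lpl, Fabp4 and Plin4, so it cannot show how much white fat was present. Of 9 macrophage markers 7 were on the array, 6 were tested and none passed, with summed signals of 4195 to 6403 in diabetic and 3498 to 4933 in normal ventricles. All 6 had a positive log2 fold change (median 0.15), as did 48% of all tested probe sets. In human blood G0S2 is also known from neutrophils, and the neutrophil markers S100a8 and S100a9 were below the filter, at summed signals of 71.1 to 179 in diabetic and 48.9 to 128 in normal ventricles.

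The ventricular label was borne out by heart muscle markers such as Myl2, at 39566 to 53119 over the 6 arrays. Heart muscle markers summed to 179300 to 234800 in diabetic and 176300 to 224600 in normal ventricles. Of 7 fibroblast markers tested 4 fell, namely Col1a1, Col1a2, Col3a1 and Lum. Dcn, Pdgfra and Tcf21 did not pass (log2 -0.01, -0.24 and -0.29, limma adjusted p = 0.982, 0.562 and 0.383). The sum of the fibroblast markers was 20740 to 22010 in diabetic, against 32320 to 37170 in normal ventricles. Much of that gap was Col3a1, with means of 2579 in diabetic and 10060 in normal ventricles. Of the atrial markers Nppa rose, at 19733, 29350 and 26650 in diabetic, against 3816, 3934.5 and 3262 in normal ventricles (limma adjusted p = 0.00087). The other atrial markers, Myl7, Myl4 and Sln, overlapped between the groups and did not pass (log2 0.17, 0.43 and 1.645, limma adjusted p = 0.922, 0.664 and 0.292). Of the heart muscle markers Myh7 rose and Myh6 fell (limma adjusted p = 0.00888 and 0.0281). Of 5 endothelial markers tested Tie1 fell (log2 -0.94, limma adjusted p = 0.0222), and the others did not pass. The list did not move as one, since 2 of the 5 had a positive log2 fold change, among them Pecam1 (0.68, limma adjusted p = 0.147). The part of these shifts in the values of Pnpla2, G0s2, Pnpla7 and Cidea was not tested. The signal at the 3′ end over that at the 5′ end of the Gapdh control, a sign of RNA quality, was 1.25 to 1.41 in diabetic and 1.18 to 1.34 in normal ventricles. For the beta-actin control it was 1.23 to 1.61 in diabetic and 1.25 to 1.84 in normal ventricles. The hexokinase control had 1.53 to 1.99 in diabetic and 1.68 to 1.90 in normal ventricles.

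Of the other genes of the pathway 1 passed the test. Over 5 lists, 132 further genes were named, 110 of them on the array and 85 tested, and by limma 1 rose and 0 fell at the brightest probe set of each gene (18 had an unadjusted p under 0.05). That is 1.18% called and 21.2% with an unadjusted p under 0.05, against 2.88% and 19.9% of all tested probe sets. Their median log2 fold change was 0.02, against -0.01 for all tested probe sets. The gene that rose was Insr, the insulin receptor, in the list of 23 tested genes of hormonal control of lipolysis. Its signals were 344, 360 and 312 in diabetic ventricles, against 193, 152 and 184 in normal ventricles, with no overlap (log2 0.89 ± 0.15, limma adjusted p = 0.019). Insr did not pass without normal 2, normal 3 or diabetic 2.

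Of 19 other droplet proteins tested, none passed (3 had an unadjusted p under 0.05). The smallest p was that of Hilpda, a small droplet protein that, like G0s2, inhibits adipose triglyceride lipase. Its signals were 217, 232 and 183 in diabetic ventricles, against 105, 146 and 111 in normal ventricles. All diabetic arrays were above all normal ones, the opposite order from G0s2, and the log2 fold change of 0.74 ± 0.17 just missed the threshold (limma adjusted p = 0.0557). Of 11 other lipases tested none passed (2 unadjusted), the nearest being Abhd6, a monoacylglycerol hydrolase, at 0.80 ± 0.31 on the log2 scale (adjusted p = 0.194). Of 16 transcription factors tested none passed (3 unadjusted), the nearest being Srebf1, a regulator of lipid synthesis, at 0.46 ± 0.15 (adjusted p = 0.136). Of 16 triglyceride synthesis genes tested none passed (3 unadjusted), the nearest being Plpp3, a lipid phosphatase, at -0.57 ± 0.19 at its brightest probe set (adjusted p = 0.131), and the list's median was -0.16.

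**Figure D5:**
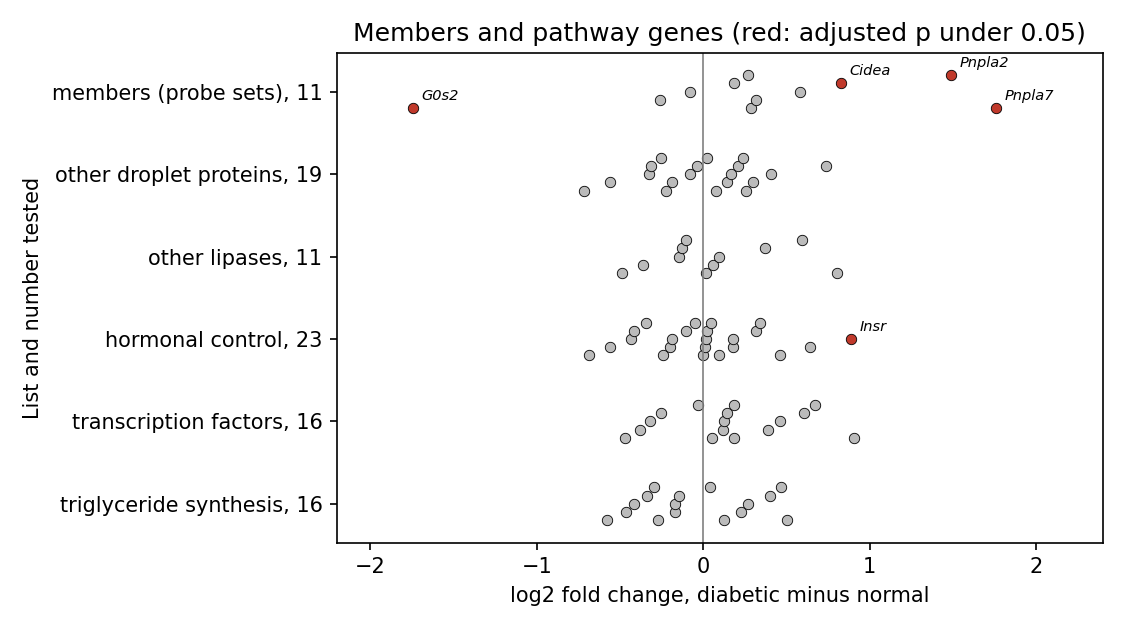
Log2 fold change (diabetic minus normal) of the 11 tested member probe sets and of the tested genes of 5 pathway lists (the brightest probe set of each gene, where tested), red where the limma adjusted p is under 0.05. Of the listed genes Insr alone is red, and the others are grey.

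The genes with the array pattern nearest to that of Pnpla2 and of G0s2 were picked by the root mean square distance of centred log2 signals over the 6 arrays. Nearest to Pnpla2 were LOC100912629, a long non-coding RNA gene (0.107), Omd, a leucine-rich matrix protein (0.127), and Ckap4, a protein of the endoplasmic reticulum (0.156). Omd, for example, had 520, 736 and 742 in diabetic ventricles, against 320, 254 and 160 in normal ventricles, with normal 3 again lowest. Of the members, Pnpla7 came nearest to Pnpla2 (0.285), ahead of Cidea (0.439) and Lipe (0.475). Nearest to G0s2 were Marcks, a substrate of protein kinase C (0.421), Inpp5j, an inositol phosphatase (0.437), and Cd93, a receptor of endothelial cells (0.454). Marcks, for example, had 167, 168 and 231 in diabetic ventricles, against 559, 444 and 436 in normal ventricles, and like G0s2 it was highest of its group in diabetic 3. These distances were larger than those of the genes nearest to Pnpla2. Since the genes were picked for closeness of pattern, the low normal 3 of Omd and the high diabetic 3 of Marcks follow from the picking.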

How the data were processed

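Left ventricular RNA of 6 rats was measured on 1 single-colour Affymetrix array per animal. The deposited values are linear signal intensities, 1 for each probe set. How the authors computed and scaled them is not given in the sources used here. Trimmed means (2% off each end) agreed, so the intensities were used as deposited. No detection calls were used, so dim signals lack a measured background, and precision rests on 3 arrays per group. Symbols came from the array annotation, updated by gene number through RefSeq's rat gene table (GRCr8), which matched 12748 of 12783 single-gene probe sets.

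Log2(intensity + 16) was tested with limma 3.58.1 (R 4.3.3), using lmFit and eBayes on group alone, over the 9519 probe sets whose mean log2 value over all arrays passed the 40th percentile, with two-sided p-values adjusted by Benjamini-Hochberg over all of them. The code was checked on simulated data. The Pnpla2 over G0s2 contrast used an exact permutation test. Named genes were every member, in each pathway list those that passed or otherwise the gene with the smallest p, and the 3 genes nearest in pattern to Pnpla2 and to G0s2. Marks of other cell types were named as markers. Members, lists and tests were chosen with earlier results of these data known. Promoters came from RefSeq's table, and protein sequences were not used here. Plots were made in Python 3.11.15 (matplotlib 3.10.9).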

Additional observations from a re-analysis of the deposited data

How the results depend on the processing

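Of 209 alternative values of single member probe sets, 189 kept direction and side of the threshold, 17 lost their call and 3 changed sign, all 3 of Plin3 (0.01 without normal 1, 0.04 without normal 2 and 0.105 without diabetic 1, in a range down to -0.289 without normal 3). Pnpla7 passed under every alternative run. Of the members, 3 rose and 1 fell, but without the filter on dim probe sets 1 rose and 0 fell, with a pseudocount of 1 G0s2 alone was lost (0 fell), and with any array left out 1 to 3 rose and 0 to 1 fell. Over all tested probe sets 274 changed, against 18 without the filter, 437 with it at the 60th percentile, 527 with an intensity trend, 674 at a threshold of 0.1 and 100 to 202 with any array left out. Of the pathway genes 1 rose and 0 fell. That became 0 risen without the filter and at the 60th percentile, 2 at a threshold of 0.1 and 0 to 2 with any array left out. At the 60th percentile Insr, which stood at percentile 56.6 by its mean, was below the filter and not tested. The fallen became 1 with a pseudocount of 64, 2 at the 60th percentile, 3 with an intensity trend, 2 at a threshold of 0.1 and 1 with no filter and an intensity trend together, and 0 with any array left out. That last fit, and a filter on the mean signal (245 changed), were added after seeing the data, and each left 3 members risen and 1 fallen. The Pnpla2 over G0s2 difference kept its sign under all alternatives run, at 3.00 to 3.67, and no other pair of probe sets exists for these genes. The cause of these shifts was not tested, though fits of 5 arrays have less power.

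With the replicate number as a block, 183 probe sets changed, 2 members rose and 0 fell (Cidea at an adjusted p of 0.0538 and G0s2 at 0.0744), and the Pnpla2 over G0s2 difference was 3.24 (exact paired p = 0.25, the smallest possible). Deviations of same-numbered arrays correlated at 0.066, 0.014 and 0.016, and those of other pairs at -0.084 to 0.069. Not every array correlated best with its own number. With 3 arrays per group this check cannot exclude pairing, and the main fit used group alone. Median and quantile scaling moved the median of all tested probe sets by under 0.1 on the log2 scale and left the member counts the same.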

Other observations

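The probe sets of Mgll were compared with each other after their values were seen. The brightest one (1370831_at) was 1.29, 1.14 and 1.34 times as bright as 1388644_at in diabetic ventricles, against 1.66, 2.09 and 1.80 times in normal ventricles, and it was 1.45, 1.27 and 1.48 times as bright as 1375247_at in diabetic ventricles, against 2.12, 2.08 and 2.11 times in normal ventricles. Neither ratio overlapped between the groups, and on the log2 scale diabetic minus normal was -0.55 and -0.58. The other tested pair, 1388644_at over 1375247_at, differed by -0.03, with overlapping groups. The Plin2 pair differed by 0.08, also with overlap. Each exact permutation test could reach no lower than p = 0.1 (0.2 after Benjamini-Hochberg adjustment over the 4 pairs), which both Mgll ratios with the brightest probe set gave. Which transcripts of Mgll each probe set detects is not given in the files, and the cause was not tested.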
